A study of Mus musculus with 5 samples.

Results

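The cells described here are 3T3-L1 cells that still carried transcripts of cell division on day 6 of adipogenesis. They were chosen by their own counts, as cells with at least 500 detected genes, at most 20% mitochondrial UMIs (unique molecular identifiers, 1 per captured transcript) and at least 10000 UMIs in which Mki67, Top2a, Cdk1, Ccnb1, Ccnb2, Birc5, Ube2c, Cenpf, Nusap1 and Tpx2 together reached 2000 CPM (counts per 1000000 UMIs, here of the same cell). That sum of 10 genes is called the division sum. It picked 29 of 1881 kept cells in the day 6 library with P-G3 (1.54%, exact 95% interval 1.03% to 2.21%) and 26 of 1541 in the untreated day 6 library (1.69%, 1.11% to 2.46%). Together these were 55 dividing cells out of 3422 kept day 6 cells and of 13672 kept cells in the series. The other 3367 day 6 cells, with a lower division sum, are called other cells.

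3T3-L1 is a mouse embryonic fibroblast line that turns into adipocytes when confluent cultures receive dexamethasone, insulin and isobutylmethylxanthine, followed by medium with insulin only. The groups used here were day 6 of differentiation with P-G3 at 10 µg/mL, day 6 untreated, day 3 with P-G3, day 3 untreated, and day 0, which had received neither the hormones nor the polymer. P-G3 is a positively charged polyamidoamine polymer that was in the medium from the start of induction. All groups are the same cell line, and each is 1 single-cell library, so no difference below has a replicate check, no test between groups was made, and intervals cover counting error only. Since the rule read these same cells, every comparison of dividing with other cells is a description.

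A dividing cell copies its DNA in S phase with licensing factors, polymerases and histones, then builds a spindle, separates its chromosomes and splits. Cyclin-dependent kinases drive these steps, CDK inhibitors hold them back, and the anaphase-promoting complex ends mitosis by marking proteins for destruction. 3T3-L1 cells pass through a round of division soon after induction, known as mitotic clonal expansion, and leave the cell cycle as they mature under the transcription factors PPARγ and C/EBPα. Mature adipocytes are generally regarded as non-dividing. Many genes of late division share 2 promoter elements, the cell cycle genes homology region with the core TTTGAA, read by the MuvB complexes, and CCAAT boxes, read by NF-Y.

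Stretches before the start of 4 of the genes described below are shown because they carry these elements. Ube2c, Top2a and Cdk1 are 3 of the genes that the rule sums, and Kif11 was high in the dividing cells without being part of the rule. Each sequence is the 100 bases before the RefSeq transcription start in GRCm38.p6, 5′ to 3′ on the gene's own strand, with TTTGAA and CCAAT in capitals in either orientation (TTCAAA and ATTGG are their reverse complements). The windows are chr2:164769829-164769928 on the plus strand for Ube2c, chr11:99024190-99024289 on the minus strand for Top2a, chr10:69352913-69353012 on the minus strand for Cdk1 and chr19:37376282-37376381 on the plus strand for Kif11. The Ube2c window runs past the start of the gene position given further below, which follows GENCODE vM21. Its TTCAAA therefore lies inside the gene by that annotation.
Ube2c: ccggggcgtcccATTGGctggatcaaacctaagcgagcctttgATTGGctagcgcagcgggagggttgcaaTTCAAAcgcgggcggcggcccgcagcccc
Top2a: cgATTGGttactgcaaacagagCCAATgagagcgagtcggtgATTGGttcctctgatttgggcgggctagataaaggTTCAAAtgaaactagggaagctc
Cdk1: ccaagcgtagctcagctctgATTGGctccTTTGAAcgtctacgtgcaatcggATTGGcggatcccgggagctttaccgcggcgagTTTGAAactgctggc
Kif11: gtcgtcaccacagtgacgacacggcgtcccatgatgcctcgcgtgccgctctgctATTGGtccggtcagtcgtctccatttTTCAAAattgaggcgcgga

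Both elements were searched on both strands in the 300 bases from 250 before to 50 after each RefSeq start. TTTGAA was present in 6 of the 9 promoters matched to the rule genes and CCAAT in 7 of 9, with both in 6 of 9. Among genes past 2-fold in favour of dividing cells, with the rule genes left out, 30.6% of 353 promoters held TTTGAA, 58.1% held CCAAT and 21.2% held both. Among genes at least 2-fold lower, 6.74% of 89 promoters held TTTGAA, 40.4% held CCAAT and 0 held both. Over all 32851 RefSeq promoters the shares were 17.9%, 37.4% and 6.95%, and over the 5298 promoters of genes measured in this comparison they were 12.4%, 39.1% and 5.38%. A match to these letters describes the window only.

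Dividing cells held more UMIs than their neighbours. The median number of UMIs was 70591 in dividing and 53486 in other cells with P-G3, and 78982 in dividing and 54337 in other cells without it. The dividing cells together held 2042367 UMIs with P-G3 and 2028754 untreated, so that 3 counts correspond to 1.47 and 1.48 CPM of their summed UMIs. Median mitochondrial shares were 5.35% in dividing and 5.33% in other cells with P-G3, and 6.78% in dividing and 6.36% in other cells untreated. The 2 day 6 libraries shared 6 cell barcodes, none of them between dividing cells. Markers of other cell types were low in the dividing cells. Of 8 macrophage markers 7 had no UMI with P-G3 and 6 had none untreated, with sums of 1.47 and 2.96 CPM, and of 7 endothelial markers 7 and 6 had none. The 7 skeletal muscle markers summed to 7.83 CPM in dividing and 24.1 CPM in other cells with P-G3, and to 10.8 CPM in dividing and 29.2 CPM in other cells untreated, with 6 of 7 at 0 in the dividing cells of both libraries. The 6 epithelial markers summed to 7.34 CPM in dividing and 28.6 CPM in other cells with P-G3, and to 7.89 CPM in dividing and 19.0 CPM in other cells untreated, with 3 of 6 at 0 in the dividing cells of both.

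The label's 3 markers, Mki67, Top2a and Ube2c, belong to the rule, so their presence describes the chosen cells and is no check of the label. Mki67, a coat protein of mitotic chromosomes, had a UMI in 27 of 29 dividing cells with P-G3 and 26 of 26 untreated. Top2a, which untangles DNA before chromosomes part, and Ube2c, the ubiquitin-conjugating enzyme of the anaphase-promoting complex, had one in all 55. In GRCm38, Mki67 (ENSMUSG00000031004) lies at chr7:135689784-135716361, Top2a (ENSMUSG00000020914) at chr11:98992943-99024189 and Ube2c (ENSMUSG00000001403) at chr2:164769898-164778822. Ube2c ranged from 140.1 to 2120 CPM with a median of 923 in the P-G3 cells, and from 131 to 965 with a median of 417 in the untreated cells. Its median in other cells was 0 in both libraries. Every dividing cell held UMIs of at least 7 of the 10 rule genes, and the median was 10.

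The cells nearest the threshold formed no gap. Just inside it, division sums were 2069, 2083 and 2102 CPM with P-G3 and 2011, 2053 and 2064 untreated. Just outside, they were 1973, 1959 and 1838 with P-G3 and 1897, 1895 and 1881 untreated. Cells from 1000 to below 2000 numbered 32 with P-G3 and 37 untreated. The median division sum of other cells was far lower, at 46.2 CPM with P-G3.

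Above the threshold the libraries differed in their spread. Division sums of dividing cells ran from 2069 to 8586 CPM with a median of 4076 in the P-G3 library, and from 2011 to 3826 with a median of 2483 in the untreated library. At 4000 CPM or more stood 15 of 29 P-G3 cells (51.7%, 32.5% to 70.6%) and 0 of 26 untreated cells (exact upper bound 13.2%). On day 3 this share was 36.7% of 719 dividing cells with P-G3 and 34.1% of 615 untreated.

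Early and late division transcripts were unequally spread over the 55 cells. A second sum of 10 S phase genes (Mcm2 to Mcm7, Pcna, Tyms, Rrm2 and Slbp), which the rule did not use, had a median of 1251 CPM in P-G3 and 1713 in untreated dividing cells, against 139 CPM in other cells with P-G3. Hist1h1b, a linker histone made when DNA is copied, had 10 or more UMIs in 14 of 29 P-G3 and 20 of 26 untreated dividing cells. Plk1, a kinase of mitosis, had 10 or more in 18 of 29 P-G3 and 7 of 26 untreated dividing cells. Both genes reached 10 UMIs in 7 P-G3 and 4 untreated cells, and neither did in 4 P-G3 and 3 untreated cells. Within each library, cells with a higher division sum had a lower S phase sum, with a Spearman correlation of -0.47 over the 29 P-G3 cells and -0.47 over the 26 untreated cells. These points share a library and a denominator, and 49 of 1852 other cells with P-G3 and 57 of 1515 untreated also had an S phase sum of 1000 or more.

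**Figure D1:**
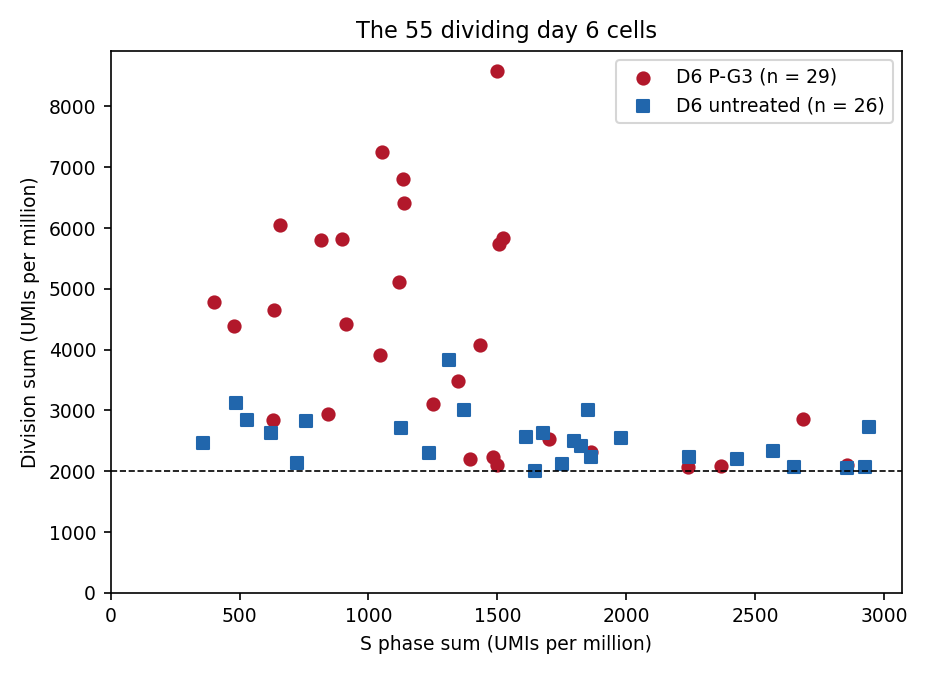
Each point is 1 dividing day 6 cell, with the S phase sum on the x axis and the division sum on the y axis, both in CPM of the cell; the dashed line is the threshold at 2000. The P-G3 cells reach 8586 on the y axis and the untreated cells 3826, and points with a high S phase sum lie low on the y axis.

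Set against the other cells of the same library, the dividing cells carried more transcripts of DNA copying, chromosome folding and spindle building, and fewer of late adipocyte products and of matrix. Of 5200 genes with at least 20 CPM in dividing or other cells of each library, 486 (9.35%) differed by 2-fold or more in the mean of both libraries with 1 direction in both, 394 of them higher (7.58%) and 92 lower (1.77%) in dividing cells. Against only those other cells whose UMIs lay within the quartiles of the dividing cells, 387 were higher and 99 lower. Of 8786 genes with at least 5 CPM, 4545 were higher and 4241 lower, with a median log2 ratio of 0.02, and -0.04 under TMM scaling (trimmed mean of M values).

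Of the cyclins of the G1 to S transition, E cyclins were higher in dividing cells in both libraries and D cyclins were not. Ccne2, cyclin E2, stood at 20.1 CPM in dividing and 8.89 CPM in other cells with P-G3, and at 49.3 CPM in dividing and 11.5 CPM in other cells untreated. E2f1, which switches on S phase genes, was at 44.1 CPM in dividing and 9.08 CPM in other cells with P-G3, and at 61.1 CPM in dividing and 14.1 CPM in other cells untreated. Ccnd2, a D cyclin, was at 460 CPM in dividing and 521 CPM in other cells with P-G3, and at 764 CPM in dividing and 870 CPM in other cells untreated. Ccnd3 had a mean log2 ratio of -0.16. Ccnd1 was low in both and went opposite ways in the 2 libraries, at 37.7 CPM in dividing and 24.0 CPM in other cells with P-G3, and at 26.1 CPM in dividing and 44.4 CPM in other cells untreated. Compared within adipocyte-high cells, a class defined below, Ccnd1 was higher in dividing cells of both libraries, with ratios of 0.54 with P-G3 and 1.04 untreated, and within adipocyte-low cells its mean ratio was -0.52. In all, 10 of 15 measured members of this list were higher, with a median of 0.55.

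Genes that copy and repair DNA were higher throughout. All 42 replication genes were higher (median 2.61 on the log2 scale), among them the DNA clamp Pcna (272 CPM in dividing and 57.6 CPM in other cells with P-G3, 374 CPM in dividing and 60.8 CPM in other cells untreated). The helicase subunit Mcm5 had a mean ratio of 3.23, the clamp partner Pclaf 4.48 and the methylation reader Uhrf1 3.51. All 20 nucleotide synthesis genes were higher (1.22), led by Rrm2, a subunit of ribonucleotide reductase, at 222 CPM in dividing and 11.4 CPM in other cells with P-G3 and 265 CPM in dividing and 15.8 CPM in other cells untreated. Of 20 listed repair and checkpoint genes 18 were measured, and all 18 were higher (2.70), with Rad51ap1 at 3.96 and Fancd2 at 3.89. Of 67 listed clustered histone genes, a list added after seeing the data, 25 were measured and 24 of them were higher (2.74). A gene could enter through its level in dividing cells alone, so these counts are in part set by the filter. The filter left out no listed gene of replication or nucleotide synthesis. Most transcripts of these genes carry no poly(A) tail, which the capture relies on, so their level is not comparable with that of other genes. Hist1h1b stood at 350.1 CPM in dividing and 8.10 CPM in other cells with P-G3, and at 663 CPM in dividing and 24.5 CPM in other cells untreated.

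Chromatin and chromosome-folding genes followed. Of 26 chromatin proteins of growing cells 24 were higher (1.28), with Hmgb2, a DNA-bending protein, at 2.98 and the histone variant H2afz at 1.60. All 22 genes of condensin, cohesin and chromosome separation were higher (3.52), with the cohesin protector Sgo1 at 4.60 and the separase Espl1 at 4.36.

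Genes of mitosis had ratios up to those of the rule genes. All 27 mitotic kinases, cyclins and their regulators were higher (3.38). Plk1 stood at 186 CPM in dividing and 2.54 CPM in other cells with P-G3, and at 91.7 CPM in dividing and 3.04 CPM in other cells untreated. Aurka, which matures spindle poles, had a mean ratio of 5.13, Aurkb, which corrects chromosome attachment, 4.63, and Ccna2, cyclin A2, 4.58. All 26 kinetochore and centromere genes were higher (3.28), led by Knl1, a scaffold of the spindle checkpoint (4.98), and the kinetochore motor Cenpe (4.94). Of 37 measured spindle and cytokinesis genes 36 were higher (3.74). Prc1, which bundles the midzone of the spindle, had the largest ratio of genes at 50 CPM or more outside the rule, at 379 CPM in dividing and 3.69 CPM in other cells with P-G3 and 174 CPM in dividing and 5.11 CPM in other cells untreated. The motors Kif11, which pushes spindle poles apart, Kif23, which works at the cleavage site, and Kif2c, which shortens microtubules, had mean ratios of 5.30, 5.22 and 5.11, and the spindle protein Hmmr 5.16. The list of the anaphase-promoting complex and its partners had a median of 0.37 over 19 members, 14 higher and 5 lower, in which its activator Cdc20 had a ratio of 4.33 and its inhibitor Fbxo5 4.05.

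The brakes of the cell cycle were not uniformly lower in dividing cells. Cdkn1a, which encodes p21, stood at 418 CPM in dividing and 454 CPM in other cells with P-G3, and at 359.8 CPM in dividing and 383 CPM in other cells untreated. Cdkn1b, which encodes p27, was at 30.4 CPM in dividing and 18.9 CPM in other cells with P-G3, and at 37.0 CPM in dividing and 29.2 CPM in other cells untreated. The INK4 gene Cdkn2c had a mean ratio of -0.48 and Cdkn2d one of 2.00. Cdkn2b was at 6.37 CPM in dividing and 18.1 CPM in other cells with P-G3, and at 3.94 CPM in dividing and 25.6 CPM in other cells untreated. Of 19 measured members of this list 7 were higher and 12 lower, with a median of -0.27.

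**Figure D2:**
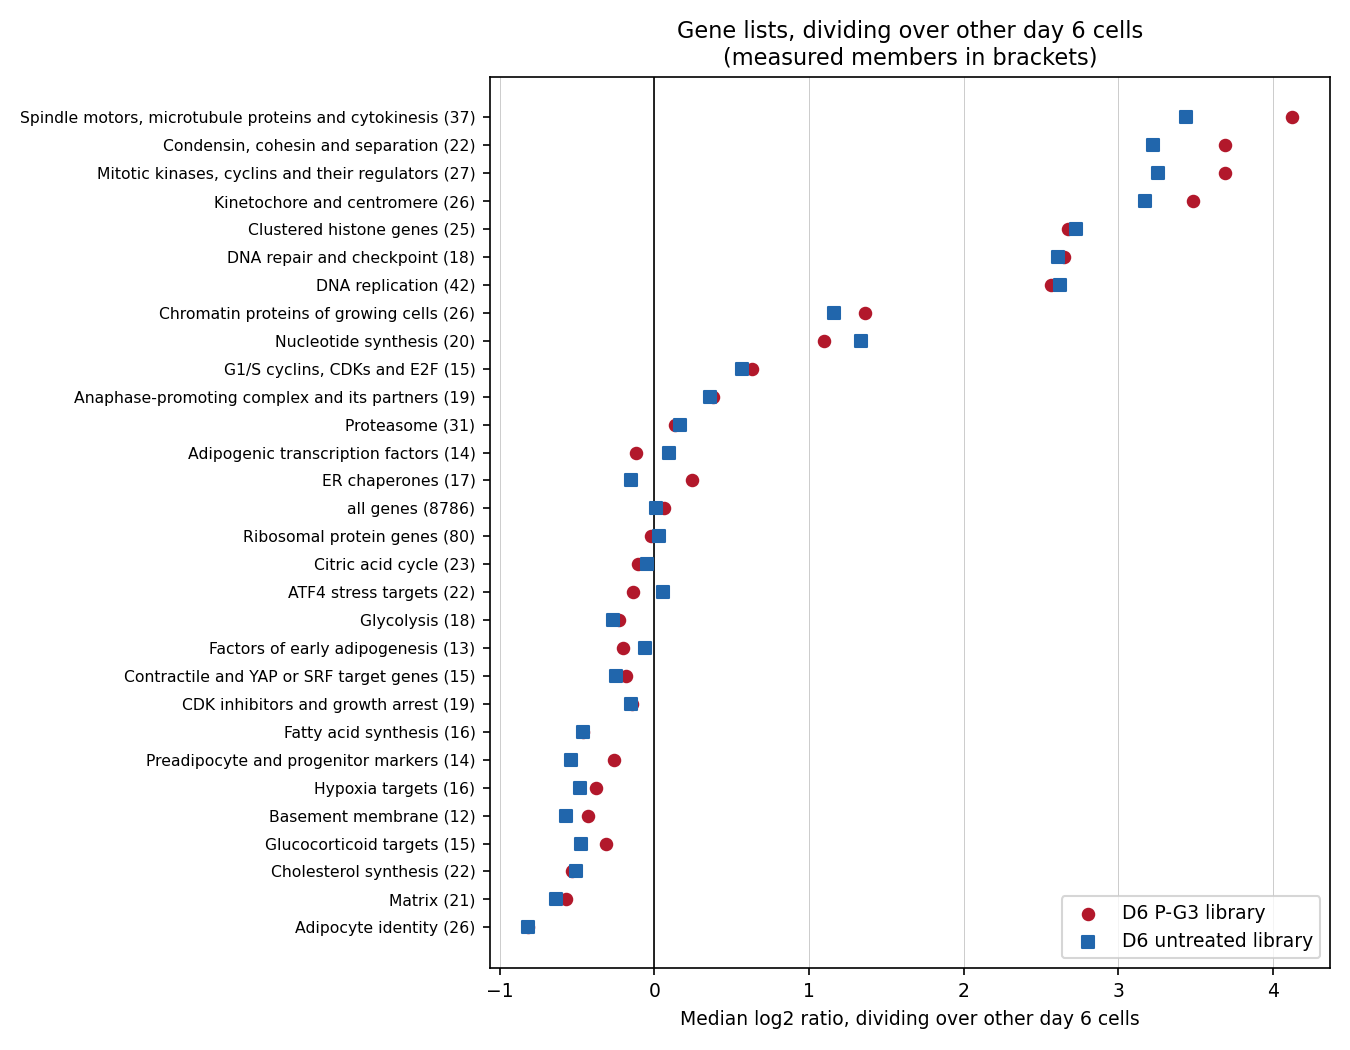
Each row is a gene list with at least 10 measured members, and the x axis is the median log2 ratio of its members, dividing over other day 6 cells of the same library (circles with P-G3, squares untreated). Spindle genes lie farthest right, at 4.12 with P-G3 and 3.44 untreated, the G1/S and anaphase-promoting complex lists lie below 1, and adipocyte identity and matrix lie below 0 in both libraries.

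Most dividing cells on day 6 carried adipocyte transcripts. The adipocyte sum adds Adipoq, Cfd, Cidec, Plin1 and Adig, none of which the rule read, and cells with 500 or more CPM are called adipocyte-high, which is a range and not a cell type. Adipocyte-high cells were 21 of 29 dividing cells (72.4%, 52.8% to 87.3%) and 74.1% of other cells with P-G3, and 22 of 26 dividing cells (84.6%, 65.1% to 95.6%) and 64.0% of other cells untreated. The sum had a median of 1237 CPM in P-G3 and 1228 in untreated dividing cells, with ranges of 56.0 to 6005 and 71.0 to 6628. All 5 genes had a UMI in 44 of the 55 cells. Between 250 and 1000 CPM, and thus near the limit, lay 9 of 29 P-G3 and 7 of 26 untreated dividing cells.

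Values that bear on droplets with a pair of cells and on free RNA stand beside this count. Among dividing cells with no more UMIs than the median of other cells, 5 of 7 with P-G3 and 5 of 6 untreated were adipocyte-high. No doublet caller was run. Without the 5% of cells that held most UMIs, 16 of 24 dividing cells with P-G3 and 19 of 23 untreated were adipocyte-high. With every cell thinned to 10000 UMIs, Adipoq, the gene of the hormone adiponectin, was found in 89.7% of dividing cells with P-G3, against 95.2% of adipocyte-high and 18.5% of adipocyte-low other cells. Untreated, it was found in 84.6% of dividing cells, against 91.3% of adipocyte-high and 11.4% of adipocyte-low other cells. Median depths of the adipocyte-low cells were 34996 and 38372 UMIs. Adipoq is part of the sum that defines this class, so its low share there follows in part from the definition. Without thinning, the Adipoq shares in dividing, adipocyte-high and adipocyte-low cells were 100%, 99.1% and 49.2% with P-G3 and 92.3%, 98.5% and 32.1% untreated. Outside the sum, thinned shares of Pparg in the same order were 75.9%, 89.1% and 66.9% with P-G3 and 80.8%, 87.8% and 67.5% untreated. Those of Cebpa were 58.6%, 51.7% and 13.5% with P-G3 and 53.8%, 60.9% and 19.8% untreated.

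**Figure D3:**
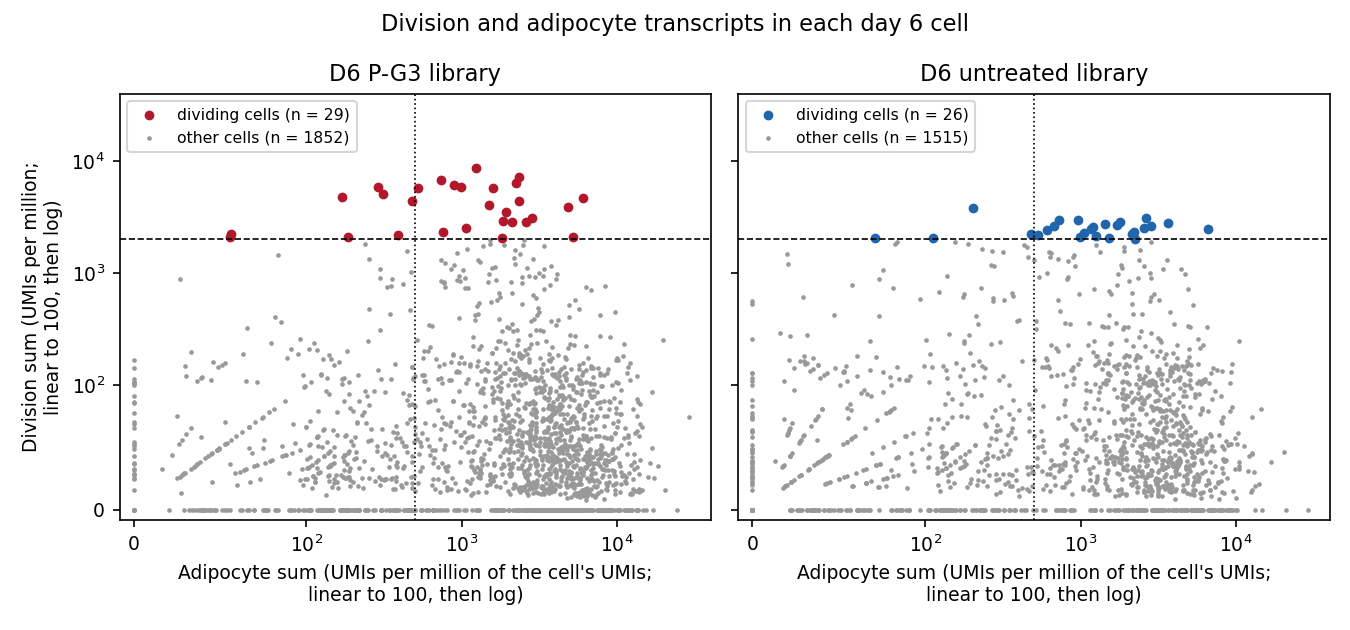
Each point is a kept day 6 cell with P-G3 (left) or untreated (right), plotted by adipocyte sum (x) and division sum (y) in CPM of the cell, on axes that are linear to 100 and logarithmic above. Coloured points above the dashed line at 2000 are the dividing cells, of which 21 of 29 with P-G3 and 22 of 26 untreated lie right of the dotted line at 500.

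The share of dividing cells was highest at middle levels of the adipocyte sum. With P-G3 it was 1.08% of cells below 100 CPM, 1.98% from 100 to 500, 4.0% from 500 to 1000, 3.24% from 1000 to 2000, 1.33% from 2000 to 4000 and 0.498% from 4000 upwards. Untreated, the shares in the same bins were 0.328%, 1.23%, 5.08%, 3.92%, 1.97% and 0.317%. Each rests on 1 to 8 dividing cells, and the intervals of neighbouring bins overlap. For the highest bin they were 0.103% to 1.45% with P-G3 and 0.00804% to 1.76% untreated. Those of the bin from 500 to 1000 were 1.31% to 9.09% and 1.89% to 10.7%. On day 3 the shares lay between 18.8% and 21.5% below 500 CPM in both libraries, at 13.2% with P-G3 and 13.2% untreated from 500 to 1000, and at 6.43% and 3.54% from 1000 to 2000.

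**Figure D4:**
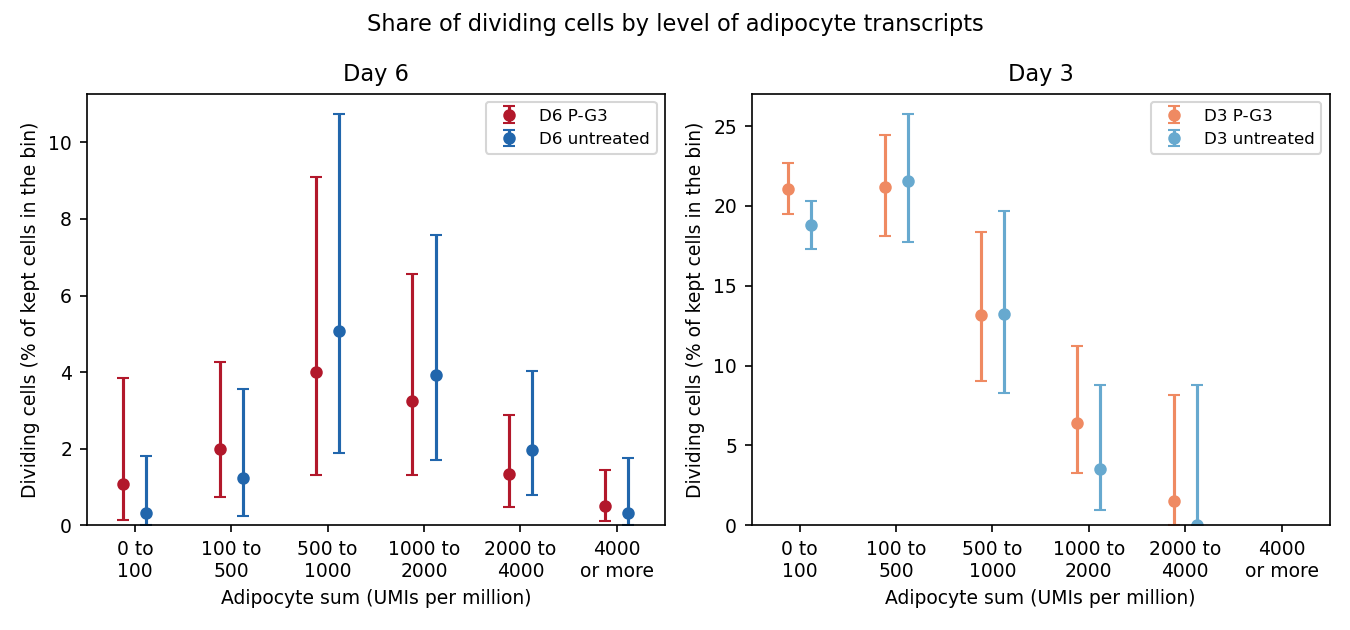
The y axis is the share of kept cells that are dividing, in percent, in bins of the adipocyte sum (x axis, CPM of the cell), with exact 95% intervals, for day 6 (left) and day 3 (right). On day 6 the points peak from 500 to 1000 at 4.0% with P-G3 and 5.08% untreated; on day 3 they decline from the second bin, and bins under 20 cells are not drawn.

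The transcription factors of the adipocyte state stood close to their neighbours' levels in dividing cells, while most of its products were lower. Pparg, which encodes PPARγ, stood at 266 CPM in dividing and 285 CPM in other cells with P-G3, and at 237 CPM in dividing and 247 CPM in other cells untreated. Cebpa was at 81.8 CPM in dividing and 80.8 CPM in other cells with P-G3, and at 122 CPM in dividing and 105 CPM in other cells untreated. Of 14 measured adipogenic transcription factors 8 were higher and 6 lower, with a median of 0.04 that turned to -0.02 under TMM and median-of-ratios scaling and was -0.12 in the P-G3 and 0.09 in the untreated library. Of 26 measured adipocyte identity genes, 24 were lower and 2 higher, with a median of -0.83.

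Among the products, Fabp4, the fatty acid carrier, stood at 17017 CPM in dividing and 29212 CPM in other cells with P-G3, and at 17894 CPM in dividing and 22810 CPM in other cells untreated. Adipoq was at 509 CPM in dividing and 877 CPM in other cells with P-G3, and at 378 CPM in dividing and 464 CPM in other cells untreated. Its level per dividing cell ran from 18.7 to 1113 CPM with P-G3 (median 309) and from 0 to 1242 untreated (median 311). Cidec, which enlarges lipid droplets, was at 171 CPM in dividing and 516 CPM in other cells with P-G3, and at 208 CPM in dividing and 607 CPM in other cells untreated. It is also part of the adipocyte sum. The desaturase Scd1, which puts a double bond into saturated fatty acids, was at 597 CPM in dividing and 1606 CPM in other cells with P-G3, and at 926 CPM in dividing and 3286 CPM in other cells untreated. A single cell gave 30.8% of the P-G3 and 27.6% of the untreated Scd1 UMIs of dividing cells.

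Set against adipocyte-high neighbours only, the dividing adipocyte-high cells still had lower products. There, 24 of 25 identity genes were lower with a median of -0.96, and Cidec and Scd1 had ratios of -1.67 and -1.70, whereas Pparg had -0.06 and Cebpa 0.05. Dlk1, a surface protein of preadipocytes that is lost during differentiation, had a ratio of 1.08 in this comparison, in which 7 of 13 progenitor markers were higher and 6 lower. Within adipocyte-low cells, with 8 dividing cells with P-G3 and 4 untreated, the ratio of Dlk1 was -1.0, and those of Adipoq, Cidec, Plin1 and Mrap turned to 1.02, 0.85, 0.19 and 0.27. The first 3 of these product genes are part of the sum that defines the class. Over all dividing cells Dlk1 stood at 431 CPM in dividing and 261 CPM in other cells with P-G3, and at 402 CPM in dividing and 346 CPM in other cells untreated, a mean ratio of 0.47 that was 0.20 without each library's highest cell.

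Several metabolic lists were lower too, some of them not within adipocyte-low cells. Of 22 cholesterol synthesis genes 19 were lower (-0.55), with Idi1 at -1.49 and Hmgcs1, the entry enzyme, at -1.04, and of 16 fatty acid synthesis genes 14 were lower (-0.37). Of 16 hypoxia targets 14 were lower (-0.39), with the oxidoreductase Ero1l at -1.58. Citric acid cycle genes had a median of -0.09, glycolysis genes -0.15, ATF4 stress targets -0.13 and ribosomal protein genes, a list added after seeing the data, 0.00 (-0.06 under TMM scaling). Within adipocyte-low cells 12 of 22 cholesterol synthesis genes were higher (0.05), 9 of 15 fatty acid synthesis genes (0.07) and 22 of 23 citric acid cycle genes (0.36), while 14 of 15 hypoxia targets were lower (-0.60). The median of all 8721 genes in that comparison was 0.05, so the cholesterol and fatty acid lists lay near it. It rests on 8 dividing cells with P-G3 and 4 untreated. Thrsp, a lipogenic nuclear protein, and Ghrh, known as the growth hormone-releasing hormone, were among the 10 lowest genes at -2.36 and -1.96. Among dividing cells, 1 cell held 85.0% of the untreated Thrsp UMIs, and 63.9% of the P-G3 and 70.9% of the untreated Ghrh UMIs came from 1 cell each. Without each library's highest dividing cell the ratios were lower still, at -3.72 for Thrsp and -3.57 for Ghrh. Ctla2a, a protease inhibitor of the cathepsin propeptide family, had the lowest ratio, at 3.43 CPM in dividing and 80.3 CPM in other cells with P-G3, and at 5.91 CPM in dividing and 82.2 CPM in other cells untreated. The transcripts Mrap, Apoc1 and Cdsn had mean ratios of -1.49, -1.66 and -1.54.

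Few dividing cells had a high level of collagen transcripts. Col1a1, which encodes collagen I, stood at 97.9 CPM in dividing cells, 56.3 CPM in adipocyte-high and 712 CPM in adipocyte-low other cells with P-G3, and at 203 CPM in dividing cells, 109 CPM in adipocyte-high and 1668 CPM in adipocyte-low other cells untreated. A Col1a1 level of 1000 CPM or more was found in 0 of 29 dividing and 150 of 1852 other cells (8.10%) with P-G3. The exact upper bound for 0 of 29 is 11.9%, which covers that share. Untreated, it was found in 2 of 26 dividing (7.69%, 0.946% to 25.1%) and 415 of 1515 other cells (27.4%). Of these other cells, 147 with P-G3 and 394 untreated were adipocyte-low. Among adipocyte-high other cells the level was found in 3 of 1372 with P-G3 and 21 of 970 untreated. On day 3 it was found in 6 of 719 dividing cells with P-G3 and in 86 of 615 untreated. Of 21 measured matrix genes 20 were lower in dividing cells (-0.61), with fibronectin, Fn1, at -1.88, and all 12 basement membrane genes were lower (-0.46). The 12 dividing cells that were adipocyte-low also differed from adipocyte-low neighbours. Their matrix genes were lower in 26 of 26 members (-0.94), progenitor markers in 17 of 17 (-1.06) and chemokines and cytokines in 6 of 6 (-3.05), while 16 of 26 identity genes were higher (0.23). The median of all 8721 genes measured there was 0.05. These values rest on 8 dividing cells with P-G3 and 4 untreated, and a gene could enter through its level in the neighbours alone. Of 14 listed chemokines and cytokines, 7 had no UMI in any dividing cell with P-G3 and 4 had none untreated.

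**Figure D5:**
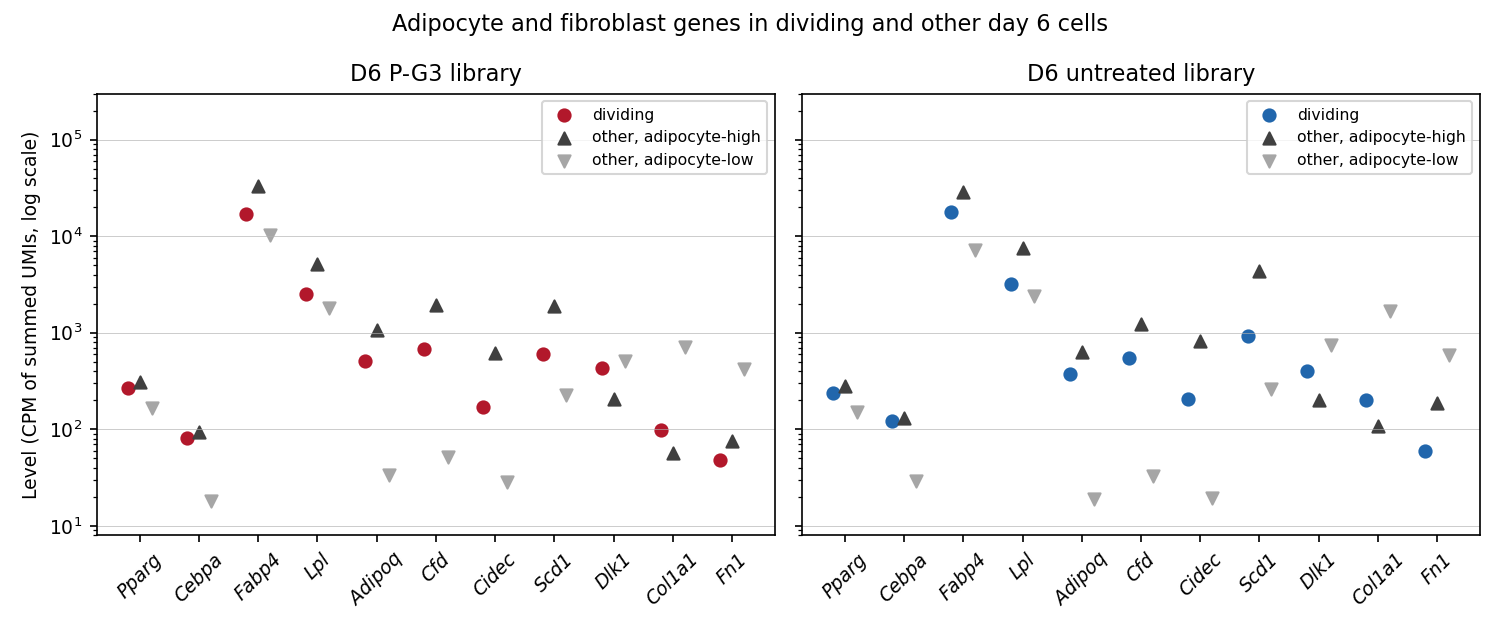
Levels in CPM of summed UMIs (y axis, log scale) for 11 adipocyte and fibroblast genes (x axis) in dividing cells (coloured circles), adipocyte-high (upward triangles) and adipocyte-low other cells (downward triangles), with P-G3 on the left and untreated on the right. For Pparg and Cebpa the dividing cells lie near the adipocyte-high cells, for Cidec and Scd1 they lie between both classes, and for Col1a1 they lie above the adipocyte-high and below the adipocyte-low cells.

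The comparison of P-G3 with untreated dividing cells sets 1 library against 1 other, so polymer and library cannot be told apart. The chosen cells also differed in their mix of Hist1h1b and Plk1 transcripts, as given above. The shares of dividing cells, 1.54% with P-G3 and 1.69% untreated, had overlapping intervals. With the threshold at 3000 CPM the shares were 0.957% with P-G3 (18 cells) and 0.260% untreated (4 cells). Of 5897 genes that reached 20 CPM in 1 of the groups or both, 395 (6.7%) differed by 2-fold or more, 41 of them higher (0.695%) and 354 lower (6%) with P-G3. The split depended on scaling, with 127 higher and 136 lower under TMM scaling and 106 higher and 163 lower under median-of-ratios scaling. Total-count scaling put the median of all genes with at least 5 CPM at -0.22, and TMM and median-of-ratios scaling at 0.00 and -0.04. Among other cells, 8 of 5565 genes (0.144%) were higher and 202 (3.63%) lower.

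Transcript length moved with this comparison. Across genes, which are not independent, transcript length and log2 ratio had a Spearman correlation of -0.52 in dividing (5897 genes) and -0.63 in other cells (5565 genes). The median ratio of dividing cells was 0.15 among the shortest transcripts (median 694 nt) and -0.59 among the longest (9986 nt). The gap between dividing and other cells in their P-G3 ratios had a correlation of 0.07 with length, and ratios of other cells stand beside several of those below. With the length trend removed, 66 genes were higher and 98 lower.

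Rule genes and most spindle genes were higher with P-G3, and other lists of late division had smaller medians that lay above that of all genes. The 10 rule genes were all higher (median 0.73 in dividing and -0.40 in other cells), which restates the higher division sums. Ratios of spindle and other late division genes were not separated from that sum, so they are no further result on P-G3. Whether they follow the sum was not tested. Of 37 spindle and cytokinesis genes 27 were higher and 10 lower (0.38 in dividing and -0.28 in other cells). Under total-count scaling the other late lists lay near 0, with 17 of 26 kinetochore genes higher (0.10) and 14 of 22 condensin and cohesin genes (0.03). Among mitotic kinases and cyclins 14 of 27 were higher (0.00), and in the anaphase-promoting complex list 8 of 19 (-0.11). The median of all genes was -0.22 there. Under TMM scaling it was 0.00, and the medians were 0.61 for spindle, 0.33 for kinetochore, 0.26 for condensin and 0.23 for mitotic kinase genes. The anaphase-promoting complex list had 0.11. In other cells the kinetochore, condensin and mitotic kinase medians were -0.25, -0.34 and -0.38. Prc1 stood at 379 CPM with P-G3 and 174 CPM untreated in dividing cells (1.11), and the ratio in other cells was -0.38. Pttg1, which encodes securin, was at 206 CPM with P-G3 and 85.3 CPM untreated (1.26), Cdkn3, a phosphatase of CDK1, at 91.6 CPM with P-G3 and 36.5 CPM untreated (1.30), and the tubulin gene Tuba1c at 311 CPM with P-G3 and 134 CPM untreated (1.21). Replication genes were lower in 31 of 42 members (-0.36) and G1/S genes in 14 of 16 (-0.67), where 6023 of all 9167 genes were lower. The medians were -0.13 and -0.44 under TMM scaling, and -0.10 and -0.22 with the length trend removed. Hist1h1b stood at 350.1 CPM with P-G3 and 663 CPM untreated. In other cells, the medians of replication and G1/S genes were -0.29 and -0.67. On day 3, the P-G3 over untreated medians in dividing cells were 0.05 for the rule genes, -0.05 for spindle genes and -0.19 for replication genes.

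Outside division, Cbr1, a carbonyl reductase, was higher with P-G3 in dividing cells (472 CPM with P-G3, 209 CPM untreated, 1.18) and in other cells (511 CPM with P-G3, 201 CPM untreated, 1.34). The largest ratio, that of the secreted resistin-like protein Retnla, was 4.82 with 153 CPM with P-G3 and 4.44 CPM untreated, but 98.1% of the P-G3 UMIs came from 1 cell, and without each library's highest cell it was 0.99. The other 4 of the 10 highest genes were Rras (1.23), Pigx (1.29), Arl6ip1 (1.18) and the class I histocompatibility gene H2-K1 (1.15). Matrix genes were lower in 22 of 24 members (-0.80 in dividing and -1.03 in other cells, -0.29 in dividing cells with the length trend removed). The lowest genes included Car3 (-3.55), Id3 (-2.68) and Txnip (-2.40), but a single untreated cell held 91.3%, 55.2% and 69.2% of their untreated UMIs, and Txnip had a ratio of -0.94 without each library's highest cell. The immediate early gene Egr1 stood at 29.4 CPM with P-G3 and 136 CPM untreated (-2.17 in dividing, -2.09 in other cells), with 58.3% of its P-G3 UMIs from 1 cell and a ratio of -3.07 without each library's highest cell, and the nuclear RNA Neat1 at 44.6 CPM with P-G3 and 144 CPM untreated (-1.67 in dividing, -1.25 in other cells). Zfp36l2 (-1.94), Nrn1 (-1.63), Plxnd1 (-1.62), Klf6 (-1.60) and the Wnt co-receptor Lrp6 (-1.54) completed the lowest 10. Without each library's highest cell Klf6 had a ratio of -1.01, Car3 one of -2.49 and Id3 one of -1.75. Of 26 adipocyte identity genes 10 were higher and 16 lower (-0.10, and 0.13 under TMM scaling).

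Dividing cells were far fewer on day 6 than before. The same rule found 315 of 3182 cells on day 0 (9.90%), 719 of 3675 on day 3 with P-G3 (19.6%) and 615 of 3393 on day 3 untreated (18.1%). Adipocyte-high cells were 0 of 315 dividing cells on day 0 (exact upper bound 1.16%), 41 of 719 on day 3 with P-G3 (5.70%) and 24 of 615 on day 3 untreated (3.90%). On day 3 the share was lower among dividing than among other cells, which had 14.2% with P-G3 and 10.3% untreated. After thinning, Adipoq was found in 10.7% of day 3 dividing cells with P-G3, 8.13% untreated and 0 of 315 on day 0 (exact upper bound 1.16%).

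Adipocyte genes were far higher in dividing cells of day 6 than of day 3. Past the 2-fold limit were 557 of 5406 genes with P-G3 (10.3%; 360 higher, 6.66%, and 197 lower, 3.64%) and 705 of 6084 untreated (11.6%; 448 higher, 7.36%, and 257 lower, 4.22%). The split moved with scaling, to 273 higher and 263 lower with P-G3 and 323 higher and 362 lower untreated under TMM scaling, and to 269 and 268 with P-G3 and 321 and 363 untreated under median-of-ratios scaling. With the length trend removed it was 257 higher and 263 lower with P-G3 and 317 higher and 337 lower untreated. Adipoq stood at 509 CPM on day 6, against 26.2 CPM on day 3, with P-G3, and at 378 CPM on day 6, against 14.4 CPM on day 3 untreated. Cfd, which encodes adipsin, was at 684 CPM on day 6, against 27.6 CPM on day 3, with P-G3, and at 552 CPM on day 6, against 18.9 CPM on day 3 untreated. Pparg was at 266 CPM on day 6, against 74.2 CPM on day 3, with P-G3, and at 237 CPM on day 6, against 51.8 CPM on day 3 untreated. Identity genes were higher in 24 of 26 members with P-G3 (2.49) and 25 of 26 untreated (2.92). Scd1, Adig, Mrap, Gpd1, Plaat3, Dgat2 and Trib3 were also among the 10 highest, with Gpd1, which makes the glycerol backbone of fat, at 3.11 with P-G3 and 3.81 untreated and Dgat2, the last enzyme of triglyceride synthesis, at 3.31 and 3.01. Ghrh was the highest at 6.16 with P-G3 and 7.44 untreated, again with most of its UMIs from 1 cell. ATF4 stress targets were higher in 19 of 20 members with P-G3 (1.07) and 22 of 22 untreated (1.36). Of all genes, 5266 of 9010 were higher with P-G3 and 5678 of 9494 untreated. Other cells differed between the days in the same direction. Their summed ATF4 targets stood at 4138 CPM on day 6, against 1914 CPM on day 3, with P-G3, and at 4068 against 1637 CPM untreated. Their summed identity genes stood at 47014 against 16400 CPM with P-G3 and 40347 against 11156 CPM untreated.

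Fibroblast genes were lower on day 6 within dividing cells. Matrix genes were lower in 24 of 25 members with P-G3 (-1.12) and 24 of 28 untreated (-1.43), and progenitor markers in 16 of 17 with P-G3 (-1.17) and 15 of 17 untreated (-1.43). Ptn, the growth factor pleiotrophin, stood at 151 CPM on day 6, against 1067 CPM on day 3, with P-G3, and at 73.0 CPM on day 6, against 1710 CPM on day 3 untreated. The calcium-binding protein S100a4 had ratios of -3.47 with P-G3 and -3.44 untreated, the growth arrest gene Gas1 -3.87 and -3.80, and the chromatin gene Hmga2 -2.68 and -3.99. Ctla2a, Cryab, Tuba1a, Timp2, Fstl1 and Adamts1 completed the lowest 10, with ratios between -4.60 and -2.60. Ccnd1 was lower as well, at 37.7 CPM on day 6, against 118 CPM on day 3, with P-G3, and at 26.1 CPM on day 6, against 207 CPM on day 3 untreated, whereas Ccnd2 was higher, at 460 CPM on day 6, against 195 CPM on day 3, with P-G3, and 764 CPM on day 6, against 281 CPM on day 3 untreated. In other cells the summed progenitor markers stood at 2838 CPM on day 6, against 7599 CPM on day 3, with P-G3, and at 3778 against 9119 CPM untreated. Their summed matrix genes stood at 3929 against 5146 CPM with P-G3 and 7468 against 8733 CPM untreated.

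Division genes had smaller ratios between the days. The same threshold on the division sum chose the cells of both days, which held the rule genes to the same minimum sum. Small ratios of these genes, and of genes that vary with them, are therefore no result about the days. Replication genes were higher on day 6 in 27 of 42 members with P-G3 (0.29) and 35 of 42 untreated (0.38), with all-gene medians of 0.11 with P-G3 and 0.13 untreated that TMM scaling put at -0.03 in both. Spindle genes were higher in 25 of 37 members with P-G3 (0.12, and -0.02 under TMM scaling) and in 3 of 37 untreated (-0.35). The rule genes followed the same pattern, 8 of 10 higher with P-G3 and 0 of 10 untreated. Ribosomal protein genes were lower on day 6 in 78 of 80 members with P-G3 (-0.35) and 75 of 80 untreated (-0.38). They were lower in other cells as well, with sums of 225912 CPM on day 6, against 295331 CPM on day 3, with P-G3. Untreated, these sums were 196968 against 271342 CPM.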

How the data were processed

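Counts of UMIs per gene and cell were deposited for 5 libraries of 3T3-L1 cells, 1 per group. Per the submitters' processing notes, reads were processed with Cell Ranger 3.1.0 on GRCm38, while version 5.0.1 stands in the headers of the matrices; which made the files is uncertain, and the annotation release is not given in the sources used here. The deposited counts were not normalized. Deposited barcodes numbered 3247 to 5719 per library, with 92556168 to 179449285 UMIs in total.

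Cells were kept and split into dividing and other by the rule given above. UMIs were summed per library and cell group and scaled to CPM, counts per 1000000. Each ratio is a log2 of CPM values after adding 1 to both, so low genes differ by more than their ratio says. For dividing over other cells the value is the mean of both within-library ratios, and the UMIs pooled over libraries were an alternative. Sums carry exact Poisson, ratios exact conditional binomial and shares exact Clopper-Pearson intervals at 95%, for counting error only. With 1 library per group no test was made.

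Genes at 20 CPM or more counted as higher or lower at 2-fold, and list members at 5 CPM or more entered list medians. Named genes are the 10 highest and 10 lowest ratios at 50 CPM or more that kept 1 sign under all 3 scalings (total count, TMM and median of ratios) and, where 2 ratios were averaged, in both of them, without rule, mitochondrial, ribosomal and unnamed genes, plus the rule genes, 30 anchor genes and up to 6 members per list. The members of the group, the 34 gene lists and the comparisons were chosen with earlier results of these data known. Transcript lengths came from GENCODE vM21 and promoters from RefSeq (GRCm38.p6). Analyses used Python 3.11.15 with numpy 2.4.6, scipy 1.17.1 and pandas 2.3.3, and were tested on simulated data. No doublets were removed.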

Additional observations from a re-analysis of the deposited data

Results flagged for a closer look

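For 3 genes picked out here the direction of a ratio differed between libraries or cell groups, and none of these differences was tested. They are not the only such cases. The P-G3 over untreated medians of rule genes (0.73 in dividing, -0.40 in other cells) and spindle genes (0.38 and -0.28) also had opposite signs. Those of the rule genes restate the higher division sums of the P-G3 dividing cells. Spindle genes, and Prc1 below, were not separated from that sum. For Ccnd1, dividing over other cells gave 0.63 with P-G3 and -0.74 untreated, from 37.7 CPM in dividing and 24.0 CPM in other cells with P-G3 and from 26.1 CPM in dividing and 44.4 CPM in other cells untreated. Within adipocyte-high cells both were above 0, at 0.54 with P-G3 and 1.04 untreated. For Retnla, P-G3 over untreated gave 4.82 in dividing and -0.85 in other cells, with 98.1% of its UMIs in P-G3 dividing cells from 1 cell. For Prc1, P-G3 over untreated gave 1.11 in dividing and -0.38 in other cells, and 1.26 in dividing cells without each library's highest cell.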

How the results depend on the processing

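No paired analysis was possible because each group is 1 library and the labels carry no replicate numbers. With the division sum at 3000 CPM or more, dividing cells were 0.957% with P-G3 and 0.260% untreated (18 and 4 cells), and at 1500 they were 2.79% untreated. The adipocyte-high share of untreated dividing cells was 61.5% with that limit at 1000 CPM. Of the counts of genes, those for dividing over other cells were 210 higher and 53 lower at 50 CPM or more and 658 higher and 409 lower with no filter. The number lower was also 214 with the division sum at 3000, 150 with cells thinned to 10000 UMIs, 222 within adipocyte-low cells, 179 in the untreated library alone and 211 without each gene's highest dividing cell. These last 2 settings were added after seeing the data.

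For P-G3 over untreated dividing cells, the numbers higher and lower were 303 and 733 with the division sum at 3000, 312 and 985 with thinned cells, 127 and 136 under TMM scaling, 106 and 163 under median-of-ratios scaling, 16 and 93 at 50 CPM, 212 and 1230 with no filter, 27 and 202 with a pseudocount of 5 CPM and 66 and 98 with the length trend removed. The number higher was 65 without the 5% of cells with most UMIs and 63 from the mean of each cell's CPM. For day 6 over day 3 without P-G3 they were 783 and 554 with the division sum at 3000, 829 and 427 with thinned cells, 257 and 130 at 50 CPM and 888 and 873 with no filter. With P-G3 they were 678 and 314 with thinned cells, 202 and 92 at 50 CPM and 733 and 865 with no filter. Thinning, the sum at 3000 and the absence of a filter rest on fewer UMIs per gene.

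Of the 10 highest and 10 lowest genes of each comparison, which were recomputed under every setting, the direction turned for 2: Txnip, P-G3 over untreated, was 0.77 with the division sum at 3000, and Cidec, dividing over other, was 0.85 within adipocyte-low cells. The 55 cells limit what low genes can show.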
